A study of Mus musculus with 6 samples.

Results

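Epithelial cells of the middle colon were compared with those of the proximal colon, the first step along the length of the mouse colon. The comparison takes 4 of the 6 libraries of the study, chosen by tissue label: 2 from the middle and 2 from the proximal colon. All hold primary epithelial cells of mice of the inbred C57BL/6J strain, wild-type in genotype and left without treatment. Each region has 1 male and 1 female library. The remaining 2 libraries, from the distal colon, served in the fit to estimate the spread. The labels give neither the age nor the number of mice behind a library, nor whether 1 animal gave more than 1 library. The p-values therefore speak only to the variation among these libraries, part or all of which may be technical.

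The proximal colon is the part of the colon nearer to the small intestine. Epithelium further along dries the contents, renews a thick mucus layer and conserves salt. Position along the gut is held in part by HOX transcription factors, whose order within a gene cluster follows their order along the body axis. The colon also recovers bile acids, handles foreign compounds and releases hormones from scattered enteroendocrine cells.

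Expression was given as FPKM, fragment counts scaled to transcript length and to library size, a scale on which levels of different genes can be compared. Below, a pair of values for a region gives the male and then the female library. A difference is middle minus proximal on the log2(FPKM + 1) scale, which understates the change of genes at low level. Genes were named by a rule of size, 15 in each direction and up to 3 called genes of a list (or its most abundant gene), and all others named were chosen after their values were seen. The 4 libraries totalled 546269 to 612818 FPKM over 24346 gene entries, of which 11358 to 11473 reached 1 FPKM, and their depth was estimated at 7.94 to 9.88 M fragments. The 12 epithelial markers summed to 9783 and 11396 FPKM in proximal and to 11094 and 9541 FPKM in middle colon. Xist and the Y-linked genes followed the sex labels in all 4 libraries.

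Markers of T cells and intraepithelial lymphocytes, which lie among epithelial cells and can come with them, had a lower summed level in middle colon. The list summed to 107 and 47.8 FPKM in proximal and to 14.5 and 26.4 FPKM in middle colon. Each of its 11 kept members had both middle values below both proximal values, which was true of 22.2% of all genes tested. By limma 1 of the 11 was called (9.09%, against 2.45% of all genes tested) and 10 were not. The granule protease gene Gzma was at 16.4 and 4.63 FPKM in proximal and at 2.42 and 0.898 FPKM in middle colon, and fell by 1.96 on the log2 scale (limma adjusted p = 0.030). The T cell receptor subunit Cd3e was at 4.05 and 1.72 FPKM in proximal and at 0.408 and 1.56 FPKM in middle colon, which was not called. The female pair of libraries differed less in this list than the male pair, with median differences of -0.35 and -2.32. Fibroblast and smooth muscle markers summed to 16.0 and 17.9 FPKM in proximal and to 13.0 and 16.8 FPKM in middle colon, with Des listed at 0. Small intestinal enterocyte and Paneth cell markers summed to 172 and 146 FPKM against 142 and 143 FPKM, with Apoa4, Apoc3 and Defa24 listed at 0. None of their 7 kept members was called by limma, but 5 were below both proximal values in both middle libraries, the same 5 had an unadjusted p under 0.05, and the median difference was -1.08. The 5 were Sis, Fabp1, Fabp6, Alpi and Mmp7, whereas the 2 most abundant members, Slc5a1 and Rbp2, had differences of 0.21 and 0.16. Mzb1 of plasma cells, Cpa3 of mast cells, S100a9 of neutrophils, Cdh5 and Emcn of endothelium and Sox10 of enteric nerve tissue were also listed at 0 in all 4 libraries. Other members of their lists were detected. Myeloid and mast cell markers summed to 10.5 and 3.83 FPKM in proximal and to 4.565 and 10.04 FPKM in middle colon. The endothelial and blood cell list summed to 138 and 40.2 FPKM against 119 and 98.8 FPKM. B and plasma cell markers summed to 0.488 and 0.647 FPKM against 1.76 and 1.48 FPKM. Enteric neuron and glia markers summed to 2.08 and 1.55 FPKM against 1.91 and 1.76 FPKM. The part of lymphocyte, myeloid, blood and small intestinal cell RNA in the results below was not tested.

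The 2 regions differed in 289 of the 11815 genes tested, 2.45% of them. In middle colon 141 genes (1.19%) rose and 148 (1.25%) fell at a limma adjusted p under 0.05. Of these, 98 rose and 119 fell at least 2-fold on the log2(FPKM + 1) scale, and the median size was 1.44. The smallest difference called was 0.59. At an unadjusted p under 0.05 the count was 2164 genes (18.3%). Counts of called list members below are to be read against these shares, so that 0 calls in a short list carries little weight. All 289 moved the same way in the male and the female pair of libraries, and for all of them the regions did not overlap. Over all genes tested, both middle values lay above both proximal values in 21.6% and below them in 22.2%. The count rested on the pairing of the libraries by sex, since 24 genes were called with sex left out of the model. It rested as well on the female middle library, without which 0 genes were called (1402 at an unadjusted p under 0.05, smallest limma adjusted p 0.079), so that each call given below ends without that library. The count was 39 without the male middle library and 806 without the female proximal one. It was 187 without the variance trend and 4 with no filter on low values. All 289 genes kept their direction in every one of these settings. That adds little, because leaving out sex, the trend or the filter does not alter the difference of a gene. All 289 had also moved the same way in both sexes, so the loss of 1 library was unlikely to turn a sign.

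**Figure D1:**
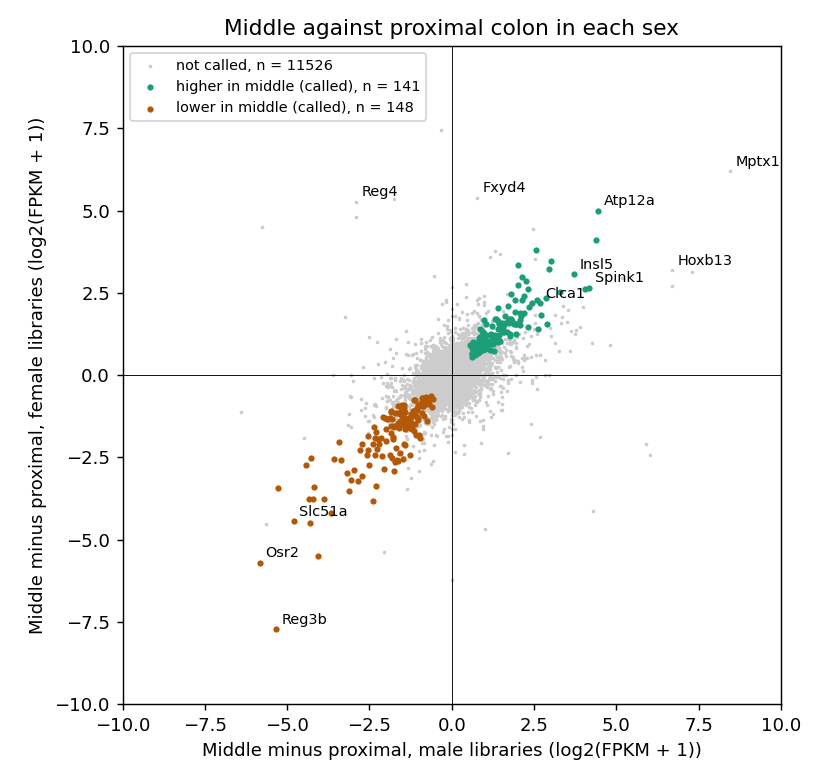
Difference between middle and proximal colon in the male libraries (horizontal axis) and in the female libraries (vertical axis), in log2(FPKM + 1), with each point a gene. The 141 genes called higher and the 148 called lower lie in the upper right and lower left quadrants, while genes such as Mptx1 and Hoxb13 have large differences in both sexes and were not called.

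Among the 289 genes, the female library of a region usually lay further than the male library in the direction of the middle colon. This held in proximal colon for 259 of the genes and in middle colon for 265. It held in both regions for 248 (85.8%), against 4696 (39.7%) of all genes tested. In neither region did it hold for 13 of the 289 and for 1827 of all genes tested. Agreement of the regions is partly built in. A gene is called more readily when its male and female libraries differ alike in each region. For a gene that rose, the order was thus most often male proximal, female proximal, male middle and female middle. Sex and animal cannot be told apart here, since each region has 1 library of each sex.

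**Figure D2:**
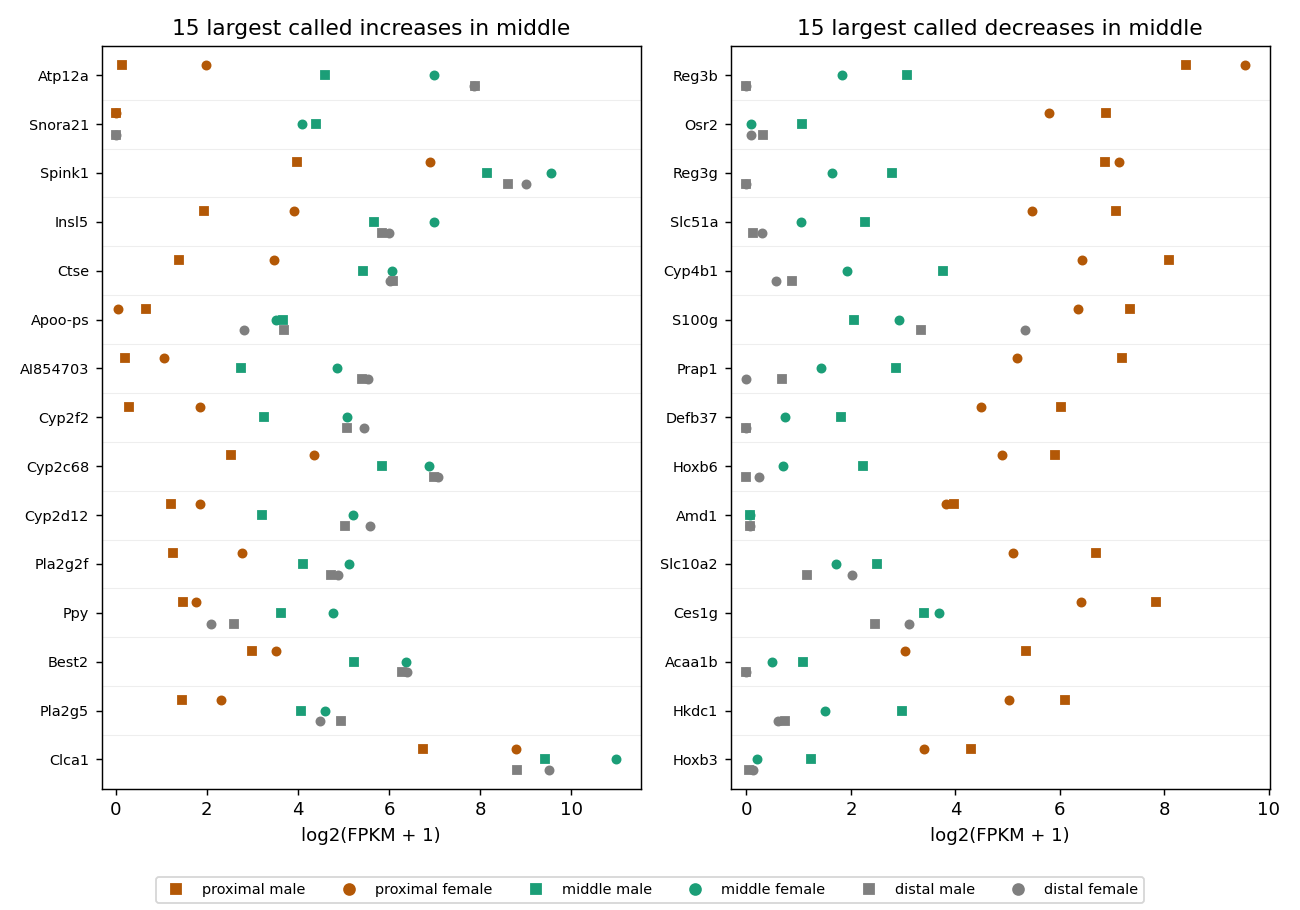
Level in log2(FPKM + 1) (horizontal axis) of the 15 largest called increases (left) and the 15 largest called decreases (right), with a square for the male and a circle for the female library of each region. In every row the proximal and middle points do not overlap, and the distal points are added for reference.

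HOX genes, transcription factors of position along the body axis, fell in part. Of 15 kept members of the anterior and central paralogs, 0 rose, 9 fell and 6 were not called, and the median difference was -1.70 against 0.00028 over all genes tested. The 6 that were not called were higher by value in middle colon. This median was -2.90 with a minimum of 5 FPKM, -0.85 with no filter and -4.09 with a pseudocount of 0.1. Those that fell were Hoxb3 to Hoxb8, which stand side by side on chromosome 11, and Hoxd3, Hoxd4 and Hoxd8 on chromosome 2. Hoxb6 (mm10 chr11:96292476-96301569, plus strand) was at 58.9 and 28.7 FPKM in proximal and at 3.70 and 0.633 FPKM in middle colon, and fell by 3.93 (SE 0.41, limma adjusted p = 0.025). Hoxb3 was at 18.8 and 9.49 FPKM in proximal and at 1.35 and 0.159 FPKM in middle colon, and fell by 3.13 (SE 0.31, limma adjusted p = 0.025). Hoxb8 was at 16.8 and 8.24 FPKM in proximal and at 0.978 and 0.166 FPKM in middle colon, and fell by 3.08 (SE 0.23, limma adjusted p = 0.018). In all 3 the female library was the lower one in each region, and the regions stayed well apart. Hoxb7, Hoxb5 and Hoxb4 fell by 3.03, 2.92 and 2.42, and Hoxd4 and Hoxd3 by 2.89 and 1.70. Hoxd8 was at 1.61 and 1.59 FPKM in proximal colon and listed at 0 in both middle libraries. Entries antisense to HOXB genes overlap them, and whether the counting used strand is not given in the sources used here.

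The Hoxa genes of the same list were not called. Hoxa5, for example, was at 1.42 and 6.14 FPKM in proximal and at 11.9 and 9.37 FPKM in middle colon (difference 1.48, limma adjusted p = 0.19). Hoxa6 was at 1.004 and 4.72 FPKM against 11.1 and 3.26 FPKM (difference 1.09, limma adjusted p = 0.49). For both genes the male proximal library was the lowest of the 4, and for Hoxa6 the regions overlapped.

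Of 10 kept posterior HOX genes, 0 were called by limma and 4 passed an unadjusted p under 0.05, 3 of them higher. Hoxb13, the last gene of its cluster, was at 0.562 and 36.2 FPKM in proximal and at 161 and 339 FPKM in middle colon. Its difference was 4.94, with a 95% interval of 2.46 to 7.43, and the limma adjusted p was 0.073. Hoxa13 was at 0.674 and 11.4 FPKM against 19.0 and 19.6 FPKM (difference 2.16, limma adjusted p = 0.21). Hoxa10 was at 2.42 and 17.7 FPKM against 23.2 and 24.5 FPKM (difference 1.64, limma adjusted p = 0.24). In these 3 genes the female proximal library lay many times above the male one, and the middle libraries lay above both. Hoxb9, next to the genes that fell, was at 49.9 and 47.3 FPKM against 38.7 and 28.4 FPKM (difference -0.54, limma adjusted p = 0.099). Hoxd10 and Hoxd13 stayed below 1 FPKM in all 4 libraries, although Hoxd13 was at 38.4 and 59.7 FPKM in distal colon. The posterior Hoxd genes thus did not separate middle from proximal colon at this depth.

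**Figure D3:**
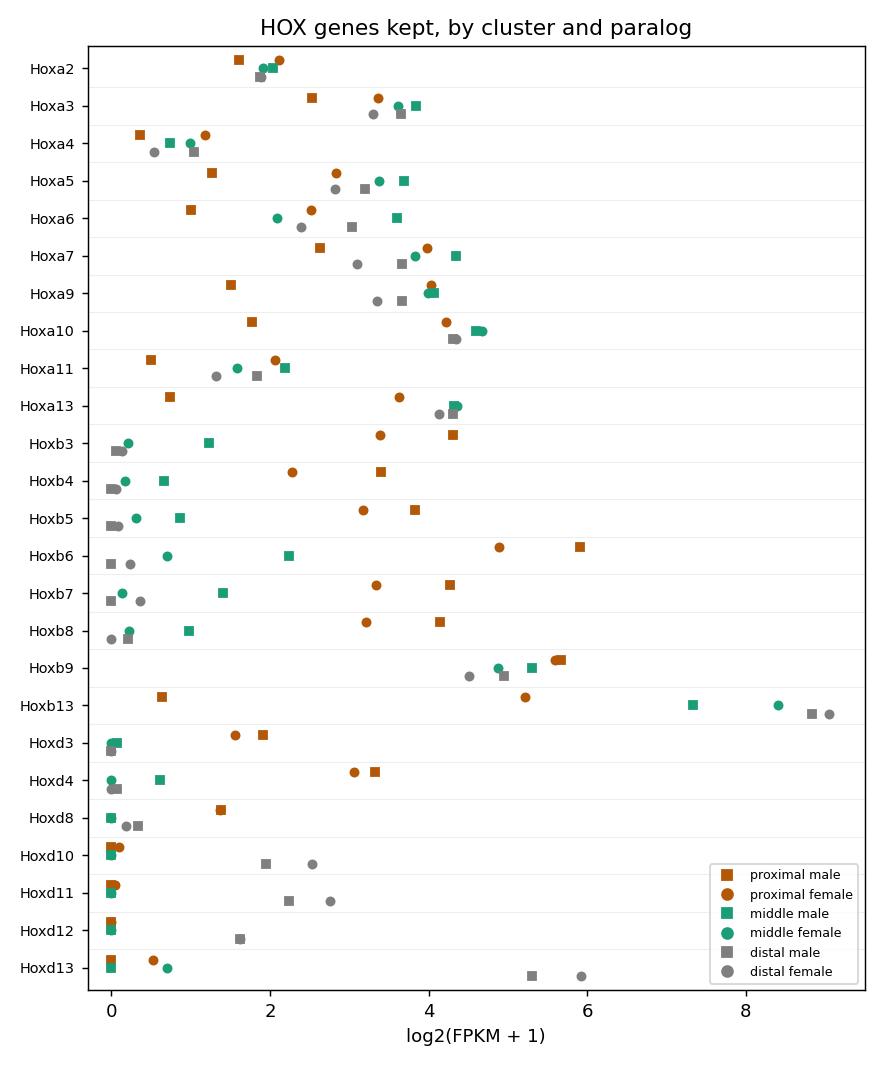
Level in log2(FPKM + 1) (horizontal axis) of each kept HOX gene, ordered by cluster and paralog, with a square for the male and a circle for the female library of each region. Hoxb3 to Hoxb8, Hoxd3, Hoxd4 and Hoxd8 are lower in both middle than in both proximal libraries, the male proximal library is low in the Hoxa genes and in Hoxb13, and Hoxd10 to Hoxd13 are near 0 outside the distal colon.

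Among 20 kept intestinal transcription factors, 1 rose, 3 fell and 16 were not called (median difference -0.02). Osr2, a zinc finger factor of the odd-skipped family (chr15:35296098-35303305, plus strand), had the second largest decrease of all named genes. It was at 118 and 54.6 FPKM in proximal and at 1.08 and 0.0671 FPKM in middle colon, a decrease of -5.77 (SE 0.24, limma adjusted p = 0.0045). Tbx3, a T-box factor, was at 7.41 and 4.40 FPKM in proximal and at 0.425 and 0 FPKM in middle colon, and fell by 2.50 (limma adjusted p = 0.024). The intestine-specific homeobox gene Isx, a regulator of carotenoid and vitamin A uptake, was at 175 and 95.9 FPKM in proximal and at 50.8 and 11.97 FPKM in middle colon, and fell by 2.33 (limma adjusted p = 0.026). Isx thus kept a sizeable level in the male middle library, whereas Osr2 and Tbx3 were at or below 1.08 FPKM in both middle libraries. Foxa2, a forkhead factor of secretory cells, went the other way, from 4.78 and 6.45 FPKM to 19.3 and 23.1 FPKM (difference 1.75, limma adjusted p = 0.026). Cdx2, the homeobox factor of intestinal identity, was at 136 and 125 FPKM in proximal and at 93.6 and 43.9 FPKM in middle colon, a difference of -1.01 with an interval of -1.66 to -0.35 that was not called (limma adjusted p = 0.12). Gata6, a zinc finger factor of the gut epithelium, was not called either, at 16.8 to 19.6 FPKM over the 4 libraries.

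Antimicrobial and host defence genes had 1 increase and 4 decreases among 24 kept members (median difference 0.43). The share called was 20.8%, against 2.45% of all genes. The largest decrease of the comparison was that of Reg3b (chr6:78370657-78373466, plus strand), and the third largest called decrease that of Reg3g (chr6:78466269-78468872, minus strand), secreted C-type lectins that kill or bind bacteria at the mucosal surface. The genes are 92802 bases apart in the Reg family cluster. Their promoters are shown because these are the largest called decreases with an entry in the promoter table. Each promoter runs from 250 bases before to 50 bases after the RefSeq start (GRCm38.p6). Most of the Reg3b promoter lies within the gene span given above, which comes from a different annotation (GENCODE M21). Capitals mark the longest run of bases the pair has in common, 29 bases that reach from 20 bases before the start to 8 bases after it. Whether this run has a part in the decreases was not tested.
Reg3b promoter (chr6:78370635-78370934, plus strand): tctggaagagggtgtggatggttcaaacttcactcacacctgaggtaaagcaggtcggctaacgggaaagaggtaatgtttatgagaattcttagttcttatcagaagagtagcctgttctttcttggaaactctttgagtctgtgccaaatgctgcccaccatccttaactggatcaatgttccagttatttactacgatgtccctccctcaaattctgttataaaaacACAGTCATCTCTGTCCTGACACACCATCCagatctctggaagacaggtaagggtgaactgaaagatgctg
Reg3g promoter (chr6:78468825-78469124, minus strand): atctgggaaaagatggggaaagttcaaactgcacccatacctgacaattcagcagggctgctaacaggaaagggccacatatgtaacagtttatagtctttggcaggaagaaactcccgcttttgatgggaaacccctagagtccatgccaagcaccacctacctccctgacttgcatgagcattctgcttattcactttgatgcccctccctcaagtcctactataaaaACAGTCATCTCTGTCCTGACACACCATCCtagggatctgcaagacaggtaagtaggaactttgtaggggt
Neither of them holds CAATAAA, a motif of the CDX and posterior HOX type, which occurs on either strand in 4.60% of the 32851 promoters of the table. The HNF4 type motif CAAAGTCCA (0.475% of promoters) was likewise not in these windows. The same was true of the GATA type motif AGATAA, found in 11.2% of promoters. Nor did either promoter hold CCACCC, a KLF type motif of 31.5% of promoters.

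Reg3b was at 341 and 742 FPKM in proximal and at 7.45 and 2.54 FPKM in middle colon, and fell by 6.53 (SE 0.52, limma adjusted p = 0.020). Reg3g was at 116 and 139.6 FPKM in proximal and at 5.93 and 2.12 FPKM in middle colon, and fell by 4.78 (SE 0.34, limma adjusted p = 0.017). Both genes were highest in the female proximal library and lowest in the female middle one, and were listed at 0 in distal colon. Reads of such related copies can be exchanged between them, which makes the separate values uncertain. The beta-defensin gene Defb37 was at 63.7 and 21.5 FPKM in proximal and at 2.50 and 0.671 FPKM in middle colon, and fell by 3.98 (SE 0.36, limma adjusted p = 0.024). The acute-phase gene Saa3 fell by 1.30, from 10.6 and 6.12 FPKM to 3.82 and 1.84 FPKM. Defb37 and Saa3 were higher in the male library of each region, the reverse of the order of the Reg3 genes in proximal colon.

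The largest difference of all, 7.33, was that of Mptx1, a mucosal pentraxin, and it was not called (SE 1.26, limma adjusted p = 0.056). Mptx1 was at 0.208 and 70.9 FPKM in proximal and at 427 and 5235 FPKM in middle colon, so that each sex had a wide gap between the regions and each region a wide gap between the sexes. Ang4, a bactericidal ribonuclease of goblet and Paneth cells, was at 2.53 and 54.4 FPKM against 19.4 and 197 FPKM (difference 2.18, limma adjusted p = 0.14). Reg4 was at 397 and 10.2 FPKM in proximal and at 52.6 and 430.5 FPKM in middle colon, so the male pair fell in value where the female pair rose, and limma gave no call (adjusted p = 0.81). Lypd8, the antibacterial surface protein that was the most abundant entry in 3 of the 4 libraries, was at 6985 and 7996 FPKM against 8272 and 11090.0 FPKM (difference 0.36, limma adjusted p = 0.58). Of 24 kept type I interferon response genes 0 were called by limma, with 6 at an unadjusted p under 0.05. The nearest, Irf7, was at 92.9 and 69.2 FPKM against 59.9 and 29.8 FPKM (difference -0.90, limma adjusted p = 0.052). MHC class II genes were low, with 0 of 6 called, 2 at an unadjusted p under 0.05, and Cd74 at 5.10 to 12.7 FPKM.

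Bile acid genes fell. Of 7 kept members of the list, 0 rose, 4 fell and 3 were not called (57.1% called against 2.45% of all genes). The median difference was -1.22 (-0.47 with no filter). In the ileum bile acids enter epithelial cells through the apical sodium-dependent transporter, leave through a basolateral exporter of 2 subunits and are sensed by the nuclear receptor FXR, and each of these genes was among the 4. The apical transporter Slc10a2 was at 102 and 33.4 FPKM in proximal and at 4.67 and 2.27 FPKM in middle colon, and fell by 3.79 (SE 0.54, limma adjusted p = 0.037). The exporter subunit Slc51a (chr16:32474504-32487879, minus strand) was at 134 and 43.5 FPKM in proximal and at 3.84 and 1.06 FPKM in middle colon, and fell by 4.62 (SE 0.42, limma adjusted p = 0.024). Its partner Slc51b was at 217 and 131 FPKM against 65.5 and 58.4 FPKM, and fell by 1.44 (SE 0.17, limma adjusted p = 0.028). In middle colon Slc51a was thus at or below 3.84 FPKM, and Slc51b at or above 58.4 FPKM. Nr1h4, which encodes FXR, was at 124 and 78.0 FPKM against 44.9 and 38.5 FPKM, and fell by 1.22 (limma adjusted p = 0.030). Fabp6, the ileal bile acid binding protein, was at 20.7 and 14.5 FPKM against 5.71 and 10.2 FPKM, which was not called (difference -1.08, limma adjusted p = 0.16). All 5 genes were higher in the male than in the female proximal library. Markers of small intestinal enterocytes and Paneth cells, which include Fabp6, also had lower values in middle colon (median difference -1.08), and their part in these decreases was not tested.

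Fatty acid oxidation and ketogenesis genes shifted in the same direction. Among 29 kept members 0 rose and 5 fell, 27 were lower by value, and the median difference was -0.33. Pdk4, a kinase that restrains glucose oxidation, was at 94.7 and 39.2 FPKM against 19.4 and 9.496 FPKM, and fell by 2.08 (SE 0.12, limma adjusted p = 0.0097). The male and female differences of Pdk4 were -2.23 and -1.94, and the male library was the higher one in both regions. Angptl4, a secreted lipase inhibitor and PPAR target, fell by 2.02 from 54.8 and 20.8 FPKM to 10.3 and 5.59 FPKM (limma adjusted p = 0.023). The peroxisomal thiolase Acaa1b was at 39.6 and 7.17 FPKM against 1.11 and 0.414 FPKM, and fell by 3.40. Cpt1a, which admits fatty acids to mitochondria, was at 194 and 159 FPKM against 149 and 134 FPKM (difference -0.31, limma adjusted p = 0.25).

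Of 12 kept genes of fat absorption and lipoprotein assembly, 0 rose and 1 fell. This was the fatty acid transport protein Slc27a4, at 82.6 and 45.7 FPKM against 34.3 and 19.7 FPKM (limma adjusted p = 0.047). Fabp2, the intestinal fatty acid-binding protein, was at 834 and 805 FPKM in proximal and at 573 and 184 FPKM in middle colon, which was not called (difference -1.33, limma adjusted p = 0.18). Cholesterol synthesis genes had 0 calls by limma among 22, with 5 at an unadjusted p under 0.05. Over all genes tested these shares were 2.45% and 18.3%. Fdps, the most abundant of them, was at 85.7 and 96.0 FPKM against 144 and 97.6 FPKM.

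Drug and xenobiotic metabolism genes fell more often than they rose, with 4 higher, 13 lower and 29 not called among 46 kept members. The share called was 37.0%, against 2.45% of all genes, and the median difference was -0.52. Members of single families went in opposite directions. Cyp4b1, a P450 that acts on fatty acids and some toxins, was at 269.5 and 85.2 FPKM in proximal and at 12.6 and 2.79 FPKM in middle colon, and fell by 4.41 (SE 0.37, limma adjusted p = 0.023). Ces1g, a carboxylesterase of lipid and drug hydrolysis, was at 227 and 83.5 FPKM against 9.52 and 11.8 FPKM, and fell by 3.58 (SE 0.48, limma adjusted p = 0.033). Both were highest in the male proximal library. Cyp2c55 was at 2645 and 1169 FPKM against 893 and 228 FPKM, and Cyp2c65 at 354 and 188 FPKM against 70.8 and 17.3 FPKM. They fell by 1.96 and 2.84 (limma adjusted p = 0.028 each), and Cyp2c66 fell by 2.73. Their relative Cyp2c68 was at 4.78 and 19.5 FPKM in proximal and at 56.1 and 116 FPKM in middle colon, an increase of 2.91 (SE 0.38, limma adjusted p = 0.031). The Cyp2c genes lie together on chromosome 19 and resemble each other, so reads may be shared between them.

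The conjugating enzymes that were called all fell. Ugt1a1, which glucuronidates bilirubin, was at 146 and 104 FPKM in proximal and at 25.0 and 14.7 FPKM in middle colon, and fell by 2.62 (SE 0.11, limma adjusted p = 0.0045). Ugt1a6a fell by 1.58, but it has exons in common with Ugt1a1, which leaves the split of reads between them uncertain. Ugt2b5, Ugt2b36 and the sulfotransferase Sult1d1 fell by 3.11, 1.64 and 1.35. Aldh1a1, which makes retinoic acid, was at 636 and 335 FPKM against 144 and 87.9 FPKM, and fell by 2.03 (limma adjusted p = 0.017). Adh1, the alcohol and retinol dehydrogenase, was at 117 and 345 FPKM in proximal and at 636 and 1571 FPKM in middle colon, and rose by 2.31 (limma adjusted p = 0.034). The 2 retinoid enzymes thus went in opposite directions, in both sexes. Nr1i3, the xenobiotic receptor CAR, rose by 1.04 from 1.86 and 2.68 FPKM to 4.82 and 6.62 FPKM (limma adjusted p = 0.0499).

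Cyp2f2, a P450 that activates naphthalene and styrene, was the eighth largest called increase. Its promoter is shown because it is one of the largest called increases with an entry in the promoter table (GRCm38.p6), and it holds none of the 4 motifs.
Cyp2f2 promoter (chr7:27119705-27120004, plus strand): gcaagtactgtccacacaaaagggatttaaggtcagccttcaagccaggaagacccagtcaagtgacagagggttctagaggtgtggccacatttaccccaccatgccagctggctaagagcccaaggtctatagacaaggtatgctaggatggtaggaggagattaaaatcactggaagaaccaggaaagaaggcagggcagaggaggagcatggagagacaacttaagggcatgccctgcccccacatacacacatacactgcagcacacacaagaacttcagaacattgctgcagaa
Cyp2f2 was at 0.231 and 2.63 FPKM in proximal and at 8.55 and 32.5 FPKM in middle colon, a difference of 3.08 (SE 0.35, limma adjusted p = 0.026). Cyp2d12, which is not in the list, was at 1.32 and 2.59 FPKM against 8.31 and 35.7 FPKM (difference 2.68, limma adjusted p = 0.031). In each region the female library was the higher one for both genes.

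Secreted goblet cell proteins had 3 increases and 0 decreases among 11 kept members, with a median difference of 0.59. In bulk samples fewer cells of a type and less RNA per cell cannot be told apart, so these values do not count goblet cells. Clca1, a metalloprotease that processes mucus, was at 106 and 440.1 FPKM in proximal and at 686 and 2008 FPKM in middle colon, and rose by 2.43 (SE 0.31, limma adjusted p = 0.029). Zg16, a lectin that binds Gram-positive bacteria, was at 1025 and 1803 FPKM against 4286 and 6676 FPKM, and rose by 1.98 (SE 0.24, limma adjusted p = 0.028). Fcgbp, a structural mucus protein, was at 128 and 219 FPKM against 551 and 765 FPKM, and rose by 1.95 (SE 0.13, limma adjusted p = 0.016). All 3 were higher in the female library of each region and did not overlap between regions.

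Muc2, the gel-forming mucin of the mucus layer, showed no such difference. It was at 1607 and 1373 FPKM in proximal and at 1980.4 and 997 FPKM in middle colon, with the male pair higher and the female pair lower in middle colon. The difference was -0.08, with an interval of -0.65 to 0.50 (limma adjusted p = 0.91). That interval lies below the differences of Clca1, Zg16 and Fcgbp, although a difference between genes was not tested. The trefoil peptide Tff3 was at 548 and 529 FPKM against 963 and 2388 FPKM (difference 1.49, limma adjusted p = 0.084). Retnlb, an antibacterial goblet cell protein, was at 63.9 and 98.2 FPKM against 24.4 and 7.99 FPKM (difference -2.41, limma adjusted p = 0.074).

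In lists of the machinery behind mucus, the share of called genes ran from 0% to 10.3%, against 2.45% over all genes tested. Foxa2 was the called member, higher, among 10 kept secretory lineage factors. Atoh1, the master factor of the secretory lineage, was at 23.9 to 37.3 FPKM over the 4 libraries, and Spdef, a goblet cell factor, was at 76.2 and 59.4 FPKM against 47.9 and 32.1 FPKM (limma adjusted p = 0.14). Of 16 secretory pathway and folding genes 0 were called by limma, with 3 at an unadjusted p under 0.05, and Agr2, a disulfide isomerase for mucin, was at 1149.9 and 1288 FPKM against 1504 and 1662 FPKM. Among 29 kept O-glycan genes, 2 rose and 1 fell, 10.3% of them against 2.45% of all genes. Of these 29, 12 were higher and 4 lower at an unadjusted p under 0.05, a share of genes that was 18.3% over all genes, and the median difference was 0.08. Gcnt1, which starts core 2 branches, rose by 1.44 from 2.59 and 5.17 FPKM to 9.67 and 14.3 FPKM (limma adjusted p = 0.026). St6gal1, better known for sialic acid on N-glycans, rose by 1.23 from 9.16 and 12.3 FPKM to 25.1 and 27.5 FPKM (limma adjusted p = 0.026). B4galnt2, which makes the Sda antigen of the colon, fell by 1.22 from 488 and 321 FPKM to 215 and 134 FPKM (limma adjusted p = 0.024). The largest difference of the list, 4.06, was that of the glycosyltransferase gene B3gnt7, named here after its value was seen. It was at 5.58 and 49.4 FPKM in proximal and at 237 and 386 FPKM in middle colon, and was not called (SE 0.69, limma adjusted p = 0.054). Membrane mucins gave 0 calls among 4 by limma, with 1 at an unadjusted p under 0.05, and Muc13 was at 461 to 604 FPKM.

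Ion transport differed in a few genes. Atp12a, the colonic proton-potassium pump (chr14:56365068-56388550, plus strand), had the largest increase of all called genes and was the called member among 20 aldosterone-responsive genes. It was at 0.0999 and 2.98 FPKM in proximal and at 23.1 and 125 FPKM in middle colon, and rose by 4.72 (SE 0.55, limma adjusted p = 0.027). It was higher still, at 237 and 231 FPKM, in distal colon. Fxyd4, a small regulator of the sodium pump, was at 0 and 1.92 FPKM in proximal and at 0.720 and 122 FPKM in middle colon, so the regions overlapped and the rise in value was mostly that of 1 library (limma adjusted p = 0.24). The sodium channel subunits Scnn1a, Scnn1b and Scnn1g were not called. Scnn1a was at 25.4 and 53.7 FPKM against 89.1 and 89.5 FPKM, while Scnn1b and Scnn1g stayed at or below 5.65 FPKM.

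Among 20 kept genes of electroneutral salt and bicarbonate transport 1 rose and 3 fell (median difference -0.27). Best2, a bicarbonate channel of colonic goblet cells, was at 6.92 and 10.4 FPKM in proximal and at 36.7 and 81.3 FPKM in middle colon, and rose by 2.55 (SE 0.24, limma adjusted p = 0.024). Car12, a membrane carbonic anhydrase, was at 64.7 and 38.0 FPKM against 23.4 and 7.995 FPKM, and fell by 1.77 (SE 0.18, limma adjusted p = 0.025). The bicarbonate carriers Slc4a4 and Slc4a2 fell by 0.72 and 0.64 (limma adjusted p = 0.040 each), among the smaller differences that were called. Car1, the cytosolic carbonic anhydrase of colonocytes, was at 19757 and 6685 FPKM in proximal and at 3402 and 1965 FPKM in middle colon. It made up 3.43% of all FPKM in the male proximal library, and its difference of -2.15 was not called (limma adjusted p = 0.088). The chloride-bicarbonate exchanger Slc26a3 was at 335 and 553 FPKM against 620.0 and 644 FPKM, and the sodium-proton exchanger Slc9a3 at 194 and 241 FPKM against 346 and 162 FPKM, neither of them called.

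The water channel Aqp1 was at 111 and 94.2 FPKM in proximal and at 53.3 and 46.6 FPKM in middle colon, and fell by 1.02 (SE 0.09, limma adjusted p = 0.024), the called member of 4. The surface water channel Aqp8 was at 113 and 309 FPKM against 524 and 472 FPKM, and Aqp4 at 10.2 and 77.6 FPKM against 213 and 153 FPKM, and neither was called (limma adjusted p = 0.17 and 0.20). In both the male proximal library was the lowest of the 4. Short-chain fatty acid genes gave 0 calls among 6 by limma, with 3 at an unadjusted p under 0.05. Among these Slc5a8, the sodium-coupled butyrate carrier, was at 25.8 and 46.8 FPKM against 70.2 and 89.9 FPKM (difference 1.17, limma adjusted p = 0.056). Bsg, the chaperone of monocarboxylate carriers, was the most abundant member. Of 21 amino acid, peptide and sugar transporters the glutamate carrier Slc1a1 rose, by 1.07, from 5.73 and 11.3 FPKM to 14.3 and 22.7 FPKM (limma adjusted p = 0.027), and 0 fell.

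**Figure D4:**
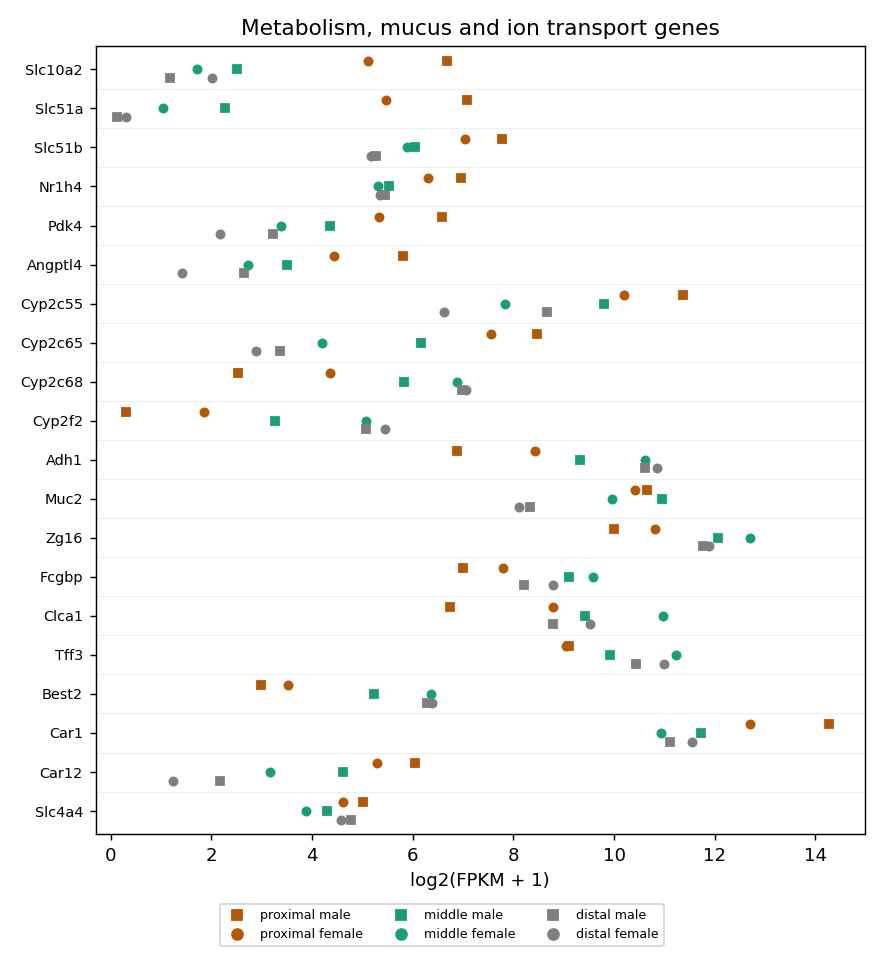
Level in log2(FPKM + 1) (horizontal axis) of genes of bile acid, fat and drug metabolism, mucus and ion transport, with a square for the male and a circle for the female library of each region. Slc10a2 to Cyp2c65 lie lower in both middle libraries, Clca1, Zg16 and Fcgbp lie higher, and Muc2 overlaps between proximal and middle colon.

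Enteroendocrine genes gave 2 increases and 1 decrease among 13 kept members. Insl5, a peptide hormone of colonic L cells, was the fourth largest called increase. Its promoter is shown with the 3 AGATAA matches in capitals, all on the strand of the gene, which begin 92, 72 and 28 bases before the RefSeq start. At least 3 matches on either strand occur in 35 of 32851 promoters (0.107%). That threshold was set by the matches seen here, so the share is a description and not a test.
Insl5 promoter (chr4:103026679-103026978, minus strand): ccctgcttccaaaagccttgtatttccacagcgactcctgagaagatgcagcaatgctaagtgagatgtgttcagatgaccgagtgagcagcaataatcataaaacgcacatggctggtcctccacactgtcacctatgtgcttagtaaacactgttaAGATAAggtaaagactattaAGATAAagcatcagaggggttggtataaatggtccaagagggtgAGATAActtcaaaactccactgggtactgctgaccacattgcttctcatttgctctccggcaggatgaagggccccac
Insl5 was at 2.84 and 14.1 FPKM in proximal and at 49.97 and 125 FPKM in middle colon, and rose by 3.39 (SE 0.40, limma adjusted p = 0.028). The matches are letters in a sequence, and the factors that bind such letters were not measured.

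Pyy, the appetite-restraining peptide of the same cells, was at 31.1 and 53.1 FPKM against 79.1 and 176 FPKM, and rose by 1.52 (SE 0.16, limma adjusted p = 0.025). Ppy, which encodes pancreatic polypeptide and lies 5356 bases from Pyy on chromosome 11, was at 1.79 and 2.41 FPKM against 11.3 and 26.2 FPKM, and rose by 2.57 (SE 0.37, limma adjusted p = 0.038). All 3 hormones were highest in the female middle library. In distal colon Ppy was at 5.03 and 3.26 FPKM, less than in middle colon. Nts, which encodes the ileal hormone neurotensin, was at 10.7 and 5.03 FPKM in proximal and at 0.129 and 0 FPKM in middle colon, and fell by 2.98 (SE 0.29, limma adjusted p = 0.024). Gcg, the source of GLP-1 in L cells, was at 69.1 and 60.2 FPKM against 58.3 and 54.6 FPKM (difference -0.19, limma adjusted p = 0.52). The general marker Chga was at 67.1 and 26.6 FPKM against 16.5 and 22.4 FPKM (limma adjusted p = 0.31). Neither of these was called.

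Among the other named increases was Spink1, a trypsin inhibitor. It was at 14.7 and 118 FPKM in proximal and at 283 and 748 FPKM in middle colon, and rose by 3.41 (SE 0.55, limma adjusted p = 0.048). Ctse, the endosomal protease cathepsin E, was at 1.63 and 10.1 FPKM against 42.3 and 66.2 FPKM, and rose by 3.32 (SE 0.48, limma adjusted p = 0.037). Both were higher in the female library of each region. The secreted phospholipases Pla2g2f and Pla2g5, 41617 bases apart on chromosome 4, rose by 2.60 and 2.44. Pla2g2f was at 1.40 and 5.80 FPKM against 16.4 and 33.6 FPKM, and Pla2g5 at 1.76 and 3.97 FPKM against 15.7 and 23.2 FPKM. AI854703, an entry without an assigned function, rose by 3.18 from 0.148 and 1.09 FPKM to 5.74 and 28.2 FPKM (limma adjusted p = 0.034).

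Other named decreases were those of S100g, Prap1 and Hkdc1. S100g, the calcium-binding protein calbindin-D9k of vitamin D-driven calcium uptake, was at 162 and 80.8 FPKM in proximal and at 3.16 and 6.55 FPKM in middle colon, and fell by 4.36 (SE 0.65, limma adjusted p = 0.040). It was at 9.14 and 39.1 FPKM in distal colon. Prap1, a secreted proline-rich protein of the gut lumen, was at 145 and 35.1 FPKM against 6.29 and 1.69 FPKM, and fell by 4.04 (SE 0.31, limma adjusted p = 0.018). Hkdc1, a hexokinase family member, was at 67.8 and 31.6 FPKM against 6.86 and 1.82 FPKM, and fell by 3.33 (SE 0.32, limma adjusted p = 0.024). In each of these the male proximal library was the highest of the 4.

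Certain entries among the 30 are uncertain because of how reads are assigned. Amd1 was at 14.6 and 13.2 FPKM in proximal and at 0.0542 and 0.0474 FPKM in middle colon, while its near-identical copy Amd2 was at 14.7 and 13.3 FPKM and at 30.2 and 29.96 FPKM. The sum of the pair was 29.3 and 26.5 FPKM in proximal and 30.2 and 30.01 FPKM in middle colon; the pair encodes the decarboxylase of polyamine synthesis. Snora21, a small nucleolar RNA inside the ribosomal protein gene Rpl23, was at 20.1 and 16.0 FPKM in middle colon and listed at 0 in the proximal and distal libraries, in libraries of polyadenylated RNA. Apoo-ps is annotated as a processed pseudogene and was at 0.577 and 0.0456 FPKM against 11.8 and 10.5 FPKM.

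Lists of stem cell, growth and housekeeping genes differed in their share of called genes, which was 2.45% over all genes tested. Of 16 kept crypt stem cell and Wnt genes the hyaluronan receptor Cd44 fell, by 1.78, from 18.2 and 13.6 FPKM to 6.00 and 2.41 FPKM (limma adjusted p = 0.026), and 0 rose. Both middle values lay below both proximal values in 9 of the 16, against 22.2% of all genes tested. An unadjusted p under 0.05 was reached by 5 of the 16, against 18.3% of all genes. Lgr5, the stem cell receptor, was at 3.05 and 4.49 FPKM against 2.34 and 2.1999 FPKM (limma adjusted p = 0.23). Replication and mitosis genes gave 0 calls among 30 by limma, with 4 at an unadjusted p under 0.05, and Pcna was at 93.5 and 98.9 FPKM against 76.8 and 63.1 FPKM. Limma called 0 of 40 ribosomal protein genes and 0 of 40 respiratory chain subunits, with 0 of each at an unadjusted p under 0.05. Rplp1 and Cox6a1 were the most abundant members of these lists. Of 31 surface colonocyte genes 3 fell (9.68%): Slc51a, Slc51b and Guca2b, which encodes uroguanylin and fell by 0.79 from 65.5 and 66.3 FPKM to 34.7 and 40.7 FPKM (limma adjusted p = 0.030). At an unadjusted p under 0.05 the surface list had 4 higher and 9 lower. The iron list gave 0 calls among 8 by limma, with 3 at an unadjusted p under 0.05, and the ferritin Fth1 was at 4088 and 2247 FPKM against 1506 and 1724 FPKM (limma adjusted p = 0.21). Tuft cell genes gave 0 of 8 by limma, with 1 at an unadjusted p under 0.05, and were all below 5 FPKM. The clock gene Ciart rose by 0.80 from 13.8 and 14.5 FPKM to 22.6 and 28.5 FPKM (limma adjusted p = 0.048), the called member of 14.

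Immediate early genes, which respond within minutes to stimuli, fell in 4 of 19 kept members and rose in 0. The share called was 21.1%, against 2.45% of all genes. Fosl1 was at 6.89 and 7.37 FPKM in proximal and at 1.25 and 0.471 FPKM in middle colon, and fell by 2.16 (limma adjusted p = 0.025). Egr2 was at 69.4 and 59.0 FPKM against 21.02 and 9.08 FPKM, and fell by 2.12 (limma adjusted p = 0.025). Atf3 fell by 1.29, from 435 and 614 FPKM to 201 and 220.1 FPKM, and was at 593 and 722 FPKM in distal colon (limma adjusted p = 0.026). Fosb, the fourth, fell by 1.07. The middle libraries were thus the lowest of the 3 regions for Atf3.

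**Figure D5:**
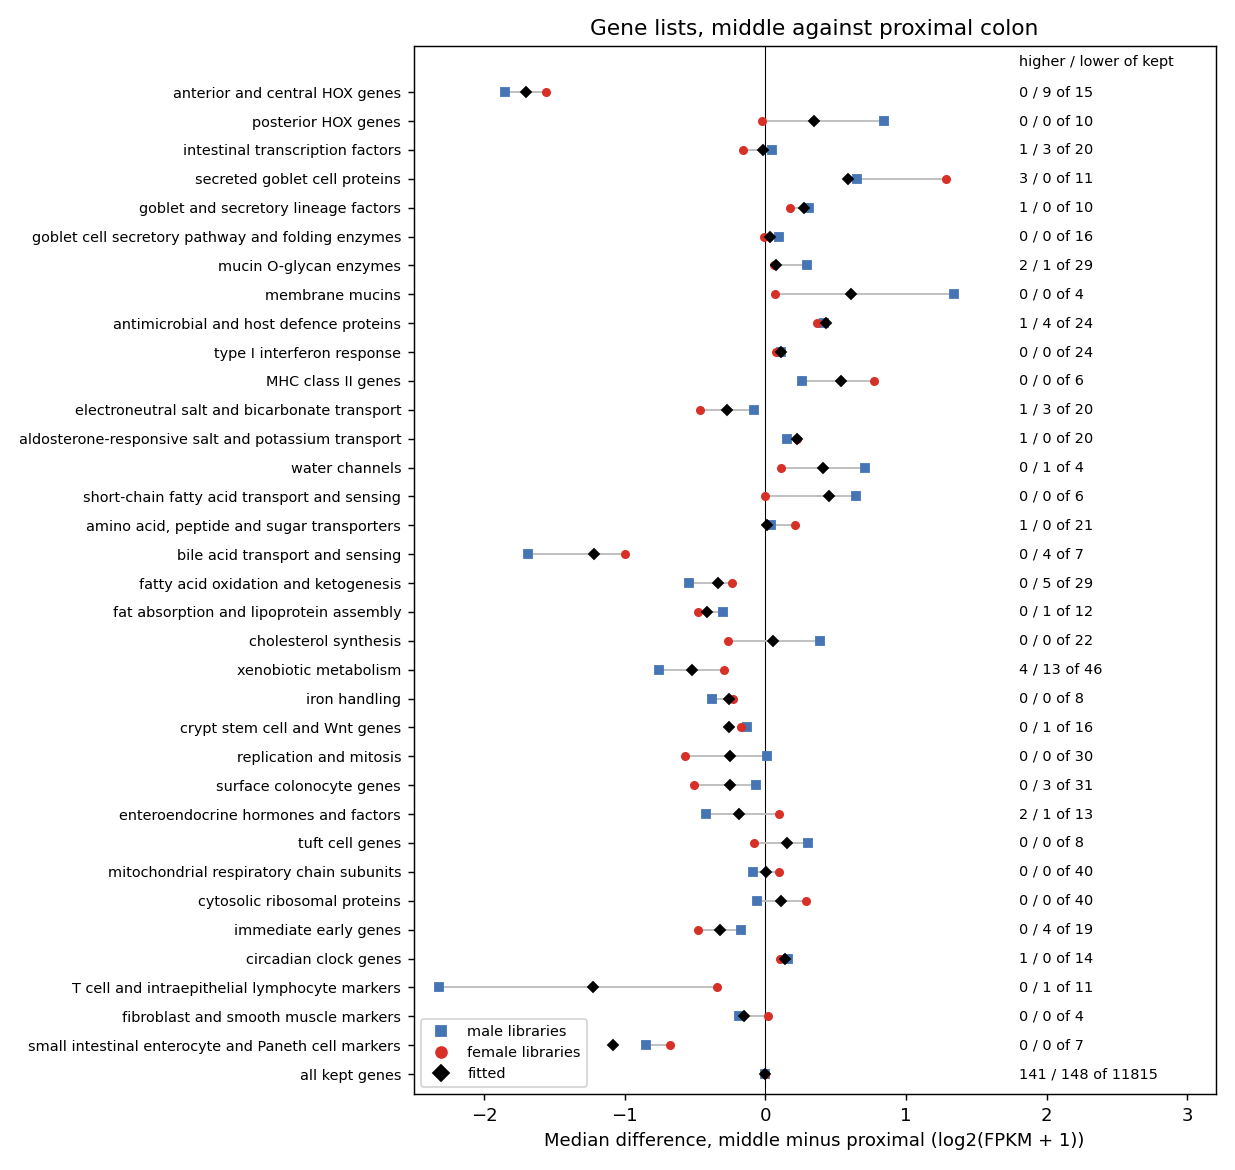
Median difference between middle and proximal colon of each gene list, in log2(FPKM + 1) (horizontal axis), for the male libraries (square), the female libraries (circle) and the fitted difference of each gene (diamond), with the number of kept members called higher and lower. Anterior and central HOX genes, bile acid genes and lymphocyte markers have the lowest fitted medians, at -1.70, -1.22 and -1.22, and all kept genes lie at 0.00028.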

How the data were processed

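The values are FPKM per gene, deposited by the authors in 1 file per library. RNA was extracted with a miRNeasy Micro kit and made into TruSeq stranded mRNA libraries, per the labels' protocols. TopHat2 2.1.1, Bowtie2 2.2.8, SAMtools 0.1.18, Cuffdiff 2.2.1 and mm10 are named in the submitters' processing notes. Their settings and annotation: not given in the sources used here.

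Genes with at least 1 FPKM in 2 or more of 6 libraries were kept (11815 of 24346). log2(FPKM + 1) was fitted with limma 3.58.1 in R 4.3.3, with region and sex as terms, a variance trend and Benjamini-Hochberg adjustment at 0.05. The fit had 2 residual and 3.49 prior degrees of freedom. Sex, given by the labels, pairs the libraries. Deviations of same-sex libraries correlated across genes at 0.18 (proximal and middle), 0.13 (proximal and distal) and 0.35 (middle and distal). The comparison and the 40 gene lists were chosen with earlier results of these data known. Named genes were the 15 largest called differences in each direction with a mean of at least 5 FPKM and the same direction in both sexes, up to 3 called members per list, and otherwise its most abundant member. Some genes this rule names are not reported here.

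Depth was estimated from the spacing of values under 0.2 FPKM in genes with 1 transcript over 1500 bases, assuming fragments of 200 bases. It is approximate, because FPKM is not a count. Coordinates are from GENCODE M21 (mm10), matched by symbol for 23268 entries. Promoters are from RefSeq (GRCm38.p6), with entries for 6 of 15 increases and 11 of 15 decreases. The fit was tested on simulated data, where unchanged genes made up a larger share of its calls than the threshold of 0.05 allows for, so some calls may be false. Figures used matplotlib 3.10.9.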

Additional observations from a re-analysis of the deposited data

Results flagged for a closer look

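The male and the female pair of libraries moved in opposite directions in 5 of the genes named by the rule. Genes chosen after their values were seen are left out of the 5, although some, such as Reg4 and Muc2, did the same. The pairs also moved in opposite directions in the 13 list medians given below. None of these genes was called. The median of endothelial and blood cell markers, with 3 kept members, also moved in opposite directions, at -0.28 (male) and 0.81 (female). The difference between the sexes was not tested, because region by sex leaves no residual degrees of freedom. Male and then female differences on the log2(FPKM + 1) scale are given.

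The haemoglobin gene Hba-a1 moved by -0.43 and 1.28, the tuft cell enzyme Ltc4s by -0.70 and 0.21 and the keratin Krt8 by 0.20 and -0.25. The ribosomal Rplp1 moved by -0.09 and 0.35, and the respiratory chain subunit Cox6a1 by -0.02 and 0.03.

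Posterior HOX genes had medians of 0.84 and -0.02, and intestinal transcription factors of 0.05 and -0.16. The median of folding enzymes was 0.09 and -0.01, that of short-chain fatty acid genes 0.64 and -0.00 (slightly below 0) and that of cholesterol synthesis 0.39 and -0.26. Replication and mitosis genes stood at 0.01 and -0.57. Enteroendocrine genes had medians of -0.42 and 0.10, and tuft cell genes of 0.30 and -0.08. For respiratory chain subunits the medians were -0.09 and 0.10, and for ribosomal proteins -0.06 and 0.29. Fibroblast and smooth muscle markers stood at -0.19 and 0.02, epithelial markers at 0.13 and -0.25 and sex-linked genes at -0.09 and 0.13.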

How the results depend on the processing

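The 289 calls (141 higher, 148 lower) came to 292 (143, 149) with median-ratio scaling, 292 (145, 147) with quantile normalization, 307 (154, 153) with a minimum of 5 FPKM, 283 (137, 146) on the 4 libraries alone and 201 (101, 100) with a pseudocount of 0.1. They came to 187 (76, 111) without the variance trend and 4 (1, 3) with no filter, where 17094 genes were tested. With sex left out of the model, so without the pairing of libraries (no replicate block), 24 (8, 16) were called. With 1 library left out the count ranged from 0 to 806, from 0 to 436 higher and from 0 to 370 lower; the lone library of its region was then assumed to vary like the others. The extremes were without the female middle and without the female proximal library, and without the male middle library the count was 39. The cause was not tested. All 289 genes kept their direction in 13 alternatives, and so did the 267 of them tested with a minimum of 5 FPKM. This adds little, since several settings leave each difference as it was and all 289 moved the same way in both sexes. Of the 30 largest differences, 29 or 30 stayed called in 8 alternatives, 25 with the pseudocount of 0.1, 20 without the trend, 9 without the male middle library, 6 without the pairing, 3 with no filter and 0 without the female middle library.

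Among the named genes, those that reversed were not called. Cox6a1 stood at -0.10 with quantile normalization. With 1 library left out, Cox6a1 ranged from -0.015 to 0.027, Hba-a1 from -0.45 to 1.29, Krt8 from -0.20 to 0.16, Ltc4s from -0.78 to 0.30 and Rplp1 from -0.10 to 0.37. Their sign turned without the female middle library (Cox6a1, Hba-a1, Krt8 and Rplp1), without the female proximal one (Cox6a1 and Krt8) and without the male proximal one (Ltc4s). Medians of the 38 gene lists were less stable. They moved by more than their spread between the sexes in 11 lists with no filter, in 9 with a minimum of 5 FPKM, in 5 with a pseudocount of 0.1, in 1 with quantile normalization, and in 7 to 10 when 1 proximal or middle library was left out. In 12 lists the median changed sign in at least 1 alternative. With 1 library left out, the median ranged from -1.87 to -1.54 for anterior and central HOX genes, from -1.69 to -0.97 for bile acid genes and from -2.02 to -0.54 for lymphocyte markers. That of small intestinal markers came to -0.05 with no filter. Values under about 1 FPKM rest on few fragments at these depths, so differences of genes near 0 in both regions were not detectable.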

Other observations

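Further families with called members were picked out after their values were seen, so their counts are a description. Calpains, calcium-dependent proteases, had 3 increases and 0 decreases among 9 kept genes. Capn9, an isoform of the digestive tract, was at 6.86 and 11.98 FPKM in proximal and at 22.6 and 31.4 FPKM in middle colon (difference 1.45, limma adjusted p = 0.025). Capn13 was at 5.59 and 9.23 FPKM against 20.6 and 42.7 FPKM (difference 1.91, limma adjusted p = 0.026). Among 15 phospholipase A2 genes the cytosolic Pla2g4f rose by 2.05 beside the secreted Pla2g2f and Pla2g5. Steroid dehydrogenases of the Hsd17b and Hsd3b families fell in 4 of 11. Hsd3b3 was at 336 and 253 FPKM against 165 and 135 FPKM (difference -0.96, limma adjusted p = 0.026). Carboxylesterases of families 1 and 2 had 1 increase, Ces2g, and 4 decreases among 11.

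The morphogens Bmp2 and Bmp3 moved in opposite directions. Bmp2, which restrains proliferation towards the surface, was at 3.19 and 5.52 FPKM in proximal and at 15.2 and 17.96 FPKM in middle colon, and rose by 1.75 (limma adjusted p = 0.025). Bmp3, an antagonist within the family, was at 31.6 and 26.2 FPKM against 16.6 and 13.5 FPKM, and fell by 0.90 (limma adjusted p = 0.026). The calcium-activated chloride channel Ano1 was at 6.36 and 20.03 FPKM against 46.8 and 73.8 FPKM, and rose by 2.27 (limma adjusted p = 0.028).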
